A study of Mus musculus with 24 samples.

Results

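The genes of 5 efflux pumps of the enterocyte, the absorptive cell of the gut, were followed across the treatments of an ileal fragment culture: Abcc2 (ENSMUSG00000025194), Abcg2 (ENSMUSG00000029802), Abcb1a (ENSMUSG00000040584), Abcc3 and Abcc4. They are the 5 of 57126 gene identifiers in the count table whose symbols match this list of drug, conjugate and bile acid pumps. The match used symbols alone. All 5 passed the filter on low counts.

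The pumps are ABC transporters, membrane proteins that use ATP to move substances out of a cell. Abcc2 (MRP2), Abcg2 (BCRP) and Abcb1a (P-glycoprotein) sit in the brush border membrane of enterocytes and return drugs, toxins, and glucuronide and sulfate conjugates to the gut lumen. Abcc3 (MRP3) sits in the basolateral membrane and passes glucuronides and bile acids on towards the blood, and Abcc4 (MRP4) exports cyclic nucleotides, conjugates and bile acids. Genes of this family are known targets of receptors that sense bile acids and foreign compounds, among them FXR, PXR and CAR.

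The series asks which genes endogenous bile acids regulate in the ileum, the last stretch of the small intestine. The tissue came from 4 h-starved male C57BL/6J mice, wild-type, and its fragments were cultured for 8 h with one of the additives before 3' sequencing by QuantSeq, which reads mRNAs near their polyadenylated ends. Of 24 libraries in 6 groups 21 were used, with 2.76 to 5.6 M counts each. The additives were DMSO, the solvent, at 0.6% (3 used libraries); tCDCA, the taurine conjugate of chenodeoxycholic acid and an FXR ligand (4, at 200 µM in replicates 2 to 4, with no concentration given for replicate 1); and 4 extracts. The extracts came from wild-type (WT) or Asbt-/- donors, which lack the ileal bile acid carrier encoded by Slc10a2, each in the forms CME(-) and CME(+). There were 4 libraries of WT CME(-), 3 of WT CME(+), 3 of Asbt-/- CME(-) and 4 of Asbt-/- CME(+). What CME stands for is not stated. CME(+) is read here as the form depleted of bile acids, since of the extracts only CME(-) is labelled with 200 µM. That label is on replicates 2 to 4 of CME(-), and replicate 1 has no concentration given. Asbt-/- describes the donor of the extract, and the cultured tissue was wild-type throughout. Whether the libraries of a group stem from separate animals is not stated, and p-values then reflect only the spread between these libraries, which may be technical.

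Column names carry 2 prefixes, called runs here: replicate 1 of each group is in the first and replicates 2 to 4 are in the second. No used DMSO library belongs to the first run, because the labels mark DMSO replicate 1 as removed for its 0.5% DMSO. In tCDCA replicate 3 mitochondrial rRNA made up 5.29% of the counts, while tCDCA replicates 4 and 2 had 28.1 and 33.1% and the used DMSO libraries 19.5 to 34.6%. The first-run libraries had 6.78 to 8.29%, and in this share and in its TMM factor (1.27, against 1.20 to 1.31 in the first run, and 0.790 and 0.902 in tCDCA replicates 2 and 4) that replicate was near the first run. Its counts also lay nearer to those of the first-run tCDCA library (chi-square per degree of freedom 51.3) than to those of replicates 2 (100.6) and 4 (76.4). In other measures it was near the second run: T and NK cell markers summed to 4.70 CPM, against 52.2 CPM in the first-run tCDCA library and 3.14 to 5.09 CPM in the other second-run ones. Whole fragments hold more than epithelium. Enterocyte markers summed to 2947 to 14171 CPM (counts scaled to library size) in the DMSO and tCDCA libraries, with at most 1 of 19 at 0 in a library, and smooth muscle markers to 996 to 2051 CPM. Fewer cells of a type and less RNA per cell cannot be told apart in such libraries.

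RefSeq promoter windows (build GRCm38.p6, 250 bases before to 50 after a start) were found for 4 of the 5 genes, 7 windows in all. AGGTCA, the core hexamer of nuclear receptor binding sites, was searched on both strands of the bases before each start. Stretches that hold it are shown for Abcc2 and Abcg2, the members that passed a test below. For Abcc2 only 30 bases around the match are shown. The bases before the second Abcg2 start held no match and are left out. None was found before the Abcb1a start or before either Abcc4 start. Capitals mark AGGTCA or its reverse complement TGACCT in the following stretches, and TGACGTCA, the cAMP response element, in the last. The stretches lie on the plus strand at chr19:43782247-43782276 for Abcc2, chr6:58584283-58584526 for the first Abcg2 start and chr6:58640296-58640545 for the third.
Abcc2: tgtcaggatgaaAGGTCAggagacttgcct
Abcg2 start 1: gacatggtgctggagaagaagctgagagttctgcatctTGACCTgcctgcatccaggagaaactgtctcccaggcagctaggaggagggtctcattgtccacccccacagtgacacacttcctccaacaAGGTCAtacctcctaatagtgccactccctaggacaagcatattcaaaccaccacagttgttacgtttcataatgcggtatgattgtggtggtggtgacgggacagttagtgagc
Abcg2 start 3: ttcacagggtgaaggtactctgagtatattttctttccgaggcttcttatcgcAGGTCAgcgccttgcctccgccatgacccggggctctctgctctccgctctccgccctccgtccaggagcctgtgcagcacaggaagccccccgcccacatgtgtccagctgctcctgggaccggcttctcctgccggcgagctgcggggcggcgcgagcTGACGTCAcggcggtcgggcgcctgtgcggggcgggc

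The hexamer begins 49 bases before the Abcc2 start, 212 and 121 bases before the first Abcg2 start, and 197 bases before the third. A GENCODE transcript of Abcc2 begins 116 bases before its RefSeq start, so the Abcc2 stretch lies within that transcript and not upstream of it. AGGTCA is present in 14.0% of the 32851 windows of the table, so a match is common. TGACGTCA, 37 bases before the third Abcg2 start, is in 1.55% of them. The inverted repeat of this hexamer with a spacing of 1 base, which FXR is known to bind, is in 2 of all windows (0.00609%), none of them a member's. TGACNNNGC, the core of the antioxidant response element (10.2% of windows), lies 98 bases before the Abcc2 start, also within that transcript, and 25 and 23 bases before the 2 Abcc4 starts. GCGTG, the core of the xenobiotic response element (28.2%), lies 101 and 94 bases before the first Abcc4 start. These matches describe letters in the windows and were not tested as binding sites. The table has no window for Abcc3.

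The pumps of the brush border were far more abundant than Abcc3 and Abcc4. Because each mRNA gives a tag near its end, CPM values were compared between genes without division by length. Over the 21 libraries Abcb1a had a mean of 269.5 CPM, at the 97.6th percentile of the genes tested. Abcg2 followed at 175.6 CPM (96.0th percentile) and Abcc2 at 85.4 CPM (90.1st percentile). Abcc3 was at 6.87 CPM (35.4th percentile, 11 to 82 counts per library) and Abcc4 at 3.89 CPM (22.3rd percentile, 4 to 43 counts). With DMSO, Abcb1a held 49.1% of the summed counts of the 5 genes on average, Abcg2 30.9%, Abcc2 18.8%, Abcc3 0.753% and Abcc4 0.449%. At counts this low, differences in Abcc3 and Abcc4 are measured with wide error.

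**Figure D1:**
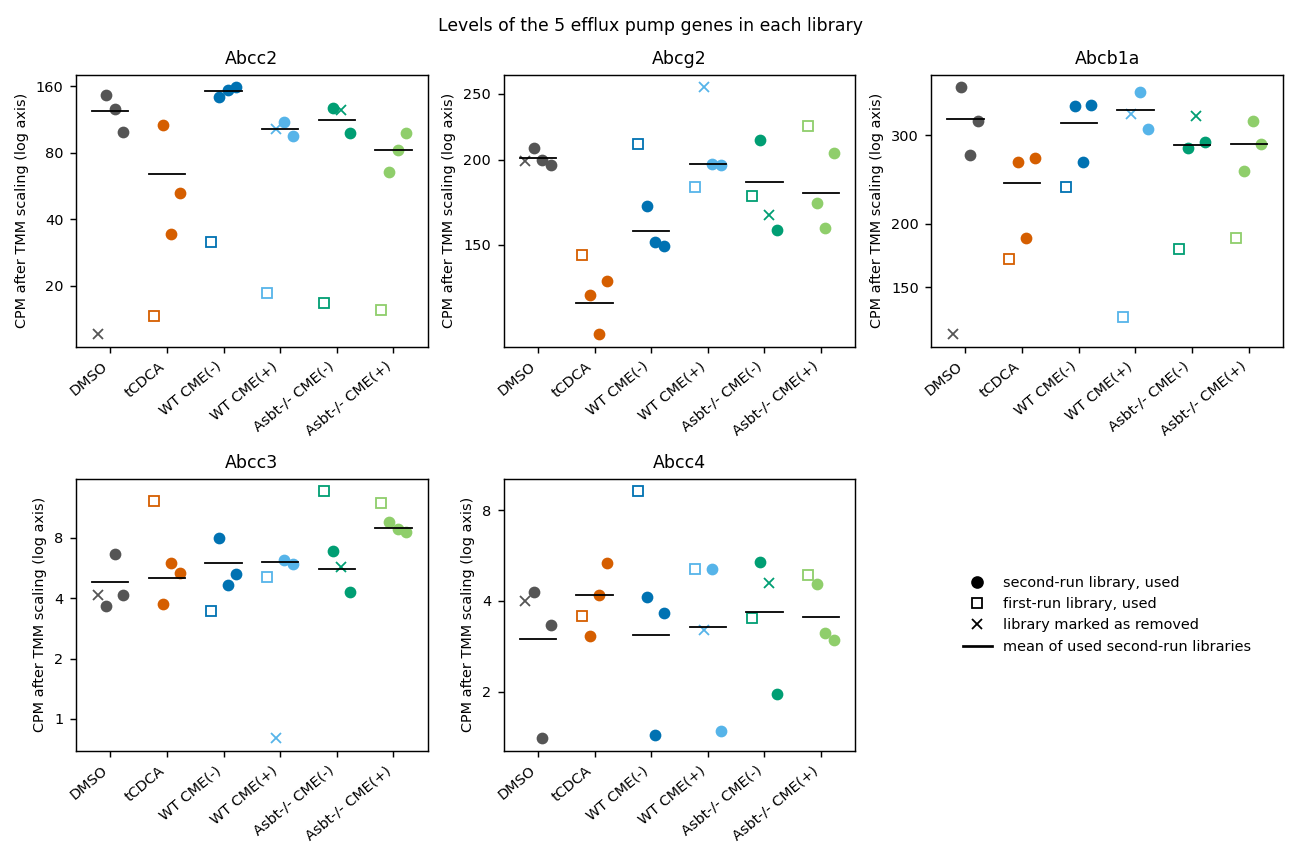
Level of each pump gene in each library (CPM after TMM scaling, log axis), by treatment group. Filled circles are used second-run libraries, open squares used first-run libraries, crosses libraries marked as removed, and lines the mean of the used second-run libraries. Abcg2 is lower in the 4 tCDCA libraries, at 111 to 145 CPM, than in the used DMSO libraries, and Abcc2 is at 12.1 to 31.6 CPM in the 6 first-run libraries.

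Abcc2 and Abcg2, both exporters of the apical membrane, fell with tCDCA relative to DMSO, and the other 3 members did not pass the test. That is 2 of 5 called lower, where 5.68% of the 13125 genes tested were called in either direction and 3.16% lower. The test was edgeR's quasi-likelihood test fitted to all 21 libraries with group and run as terms, with Benjamini-Hochberg adjustment over all genes tested and a call at an adjusted p under 0.05.

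For Abcc2, the exporter of glucuronide and glutathione conjugates, the used DMSO libraries had 145, 127 and 98.9 CPM. The second-run tCDCA libraries had 106, 34.2 and 52.5 CPM, and the first-run one 14.6 CPM. Replicate 2 of tCDCA lay within the DMSO range and replicates 3 and 4 below it. The lowest of the second run was replicate 3, which was near the first run in mitochondrial rRNA share, and Abcc2 was lower in the first run in every group; the part of this in the difference was not tested. The fitted difference was -0.89 ± 0.24 log2 units (SE; 95% interval -1.39 to -0.39), 1.85-fold lower, with an edgeR adjusted p of 0.0274. Abcc2 was 504th of the genes ordered by p. In the first run the tCDCA library stood beside 12.1 CPM in the removed DMSO replicate 1, so the direction there was the opposite of that in the second run.

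The Abcc2 call rested on several libraries. It was lost without DMSO replicate 2 (-0.76, adjusted p = 0.114), DMSO replicate 3 (-0.87, 0.109), tCDCA replicate 3 (-0.63, 0.0618) or tCDCA replicate 4 (-0.78, 0.099) in edgeR. Without tCDCA replicate 2 it was -1.27 (adjusted p = 0.000171). In the second run alone it was -0.94 with an adjusted p of 0.0821, and with no run term -1.26 with 0.574.

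For Abcg2, the breast cancer resistance protein, which carries sulfate conjugates, urate and many drugs, DMSO gave 208, 199.7 and 196 CPM. The 4 tCDCA libraries gave 145, 127, 111 and 133 CPM, the first of them from the first run. All of them lay below every DMSO library, the removed first-run DMSO library (199 CPM) included. The difference was -0.69 ± 0.15 log2 units (interval -1.004 to -0.38), 1.61-fold lower, with an edgeR adjusted p of 0.00368. In second-run libraries alone it was -0.70 (adjusted p = 0.00938), and no omission of a single DMSO or tCDCA library removed the call. With no scaling factors it was -0.57 (adjusted p = 0.108), with no run term -0.64 (0.0742), and with the DMSO and tCDCA libraries fitted alone -0.71 (0.0914).

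Abcb1a, the P-glycoprotein gene and the most abundant member, had 374, 274 and 320.5 CPM with DMSO. With tCDCA it had 265, 188 and 271 CPM in the second run and 170.2 CPM in the first. Every tCDCA library was below the lowest used DMSO library, although replicate 4 came close to it, and the removed first-run DMSO library was lower than all of them at 121 CPM. The difference of -0.37 ± 0.17 log2 units (interval -0.73 to -0.02) had an adjusted p of 0.246 in edgeR. Reads from the related gene Abcb1b could have been divided between these paralogs, so the level of Abcb1a is uncertain to that extent.

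Neither of the scarcer pumps passed the test with tCDCA. Abcc3, the basolateral exporter, had 3.67, 6.64 and 4.16 CPM with DMSO and 3.73, 6.01 and 5.34 CPM in the second-run tCDCA libraries, and these ranges overlapped. Its first-run tCDCA library had 12.2 CPM, against 4.15 CPM in the removed DMSO replicate 1. The difference was 0.35 ± 0.43 (interval -0.52 to 1.23). Abcc4, the exporter of cyclic nucleotides, had 4.28, 1.40 and 3.32 CPM with DMSO and 3.05, 4.18 and 5.34 CPM with tCDCA, with 3.57 CPM in the first run. Its difference was 0.28 ± 0.56 (interval -0.86 to 1.42), which leaves changes of more than 2-fold in size within the interval.

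**Figure D2:**
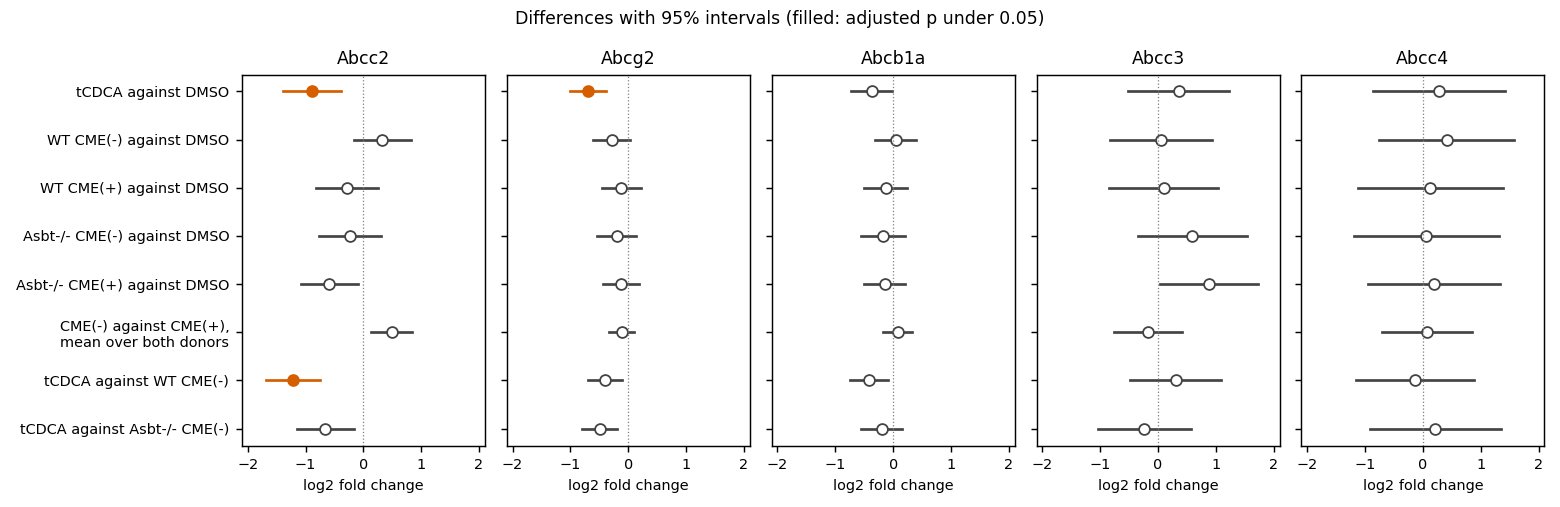
Fitted log2 fold change of each pump gene (points) with 95% interval (lines) in 8 comparisons, filled where the adjusted p was under 0.05. The filled points are Abcc2 and Abcg2 with tCDCA against DMSO, at -0.89 and -0.69, and Abcc2 with tCDCA against WT CME(-), at -1.21.

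**Figure D3:**
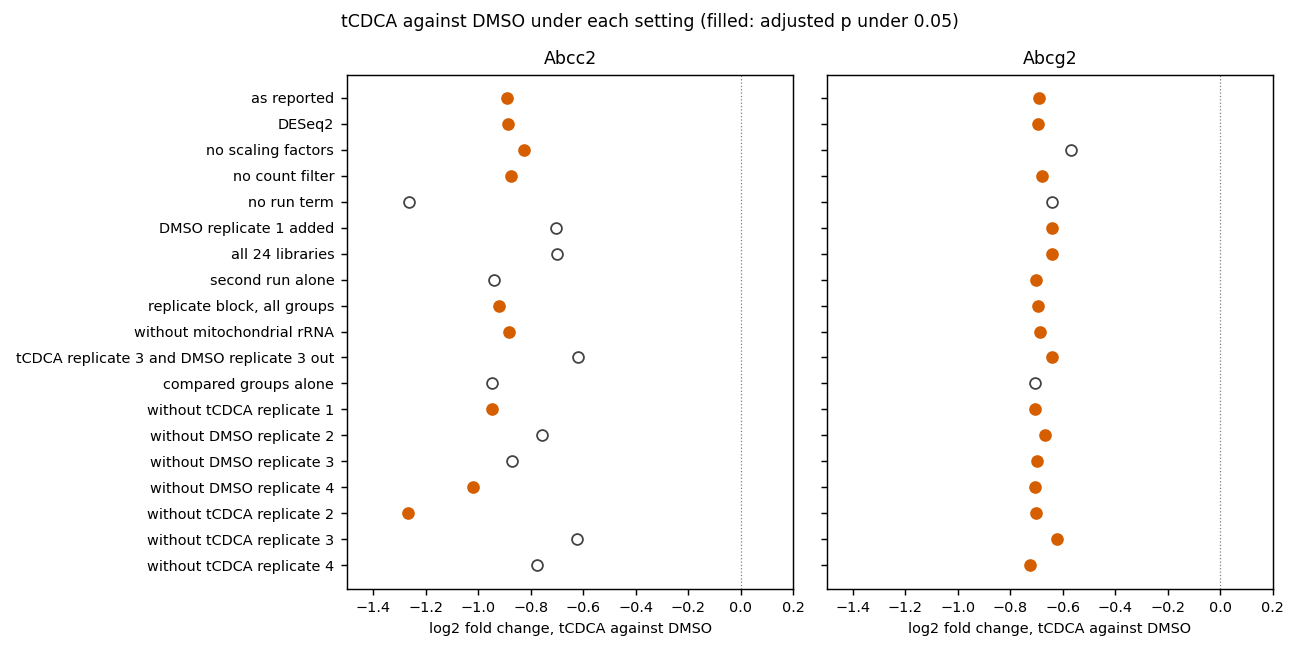
Log2 fold change of Abcc2 and Abcg2 between tCDCA and DMSO as reported and under 18 alternative settings, filled where the adjusted p was under 0.05. Abcc2 ranges from -1.27 to -0.62 and passes in 8 of the alternatives, and Abcg2 from -0.73 to -0.57 and passes in 15.

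The fall of both pumps stood beside a fall of enterocyte genes. Of 19 enterocyte markers 15 fell with tCDCA and none rose, with a median log2 difference of -1.47, where the median of all genes tested was 0.00 and their quartiles -0.34 and 0.34. Among them were the brush border peptidase genes Mep1b (-1.47 ± 0.19), Dpp4 (-1.22 ± 0.18) and Enpep (-1.02 ± 0.15) and the microvillus motor gene Myo1a (-1.32 ± 0.19). The number called lower was 9 with no run term and 12 without tCDCA replicate 3 and DMSO replicate 3. The summed marker level was 9215, 14171 and 10190 CPM with DMSO, and 5154, 2956 and 2947 CPM in the second-run tCDCA libraries, with no overlap. The order of the libraries matched that of Abcc2 only in part: DMSO replicate 3 had the most marker RNA and the middle Abcc2 level, while tCDCA replicate 2 was the highest tCDCA library in both.

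Markers of the epithelium as a whole had a median difference near 0. Of 10 epithelial markers the keratin genes Krt18 (1.15 ± 0.27) and Krt19 (0.62 ± 0.19) rose and Krt20 (-0.71 ± 0.21) fell, and the median was -0.08. They summed to 6116 to 7233 CPM with DMSO and 5410 to 6749 CPM in the second-run tCDCA libraries. Of 8 villus tip markers Klf4 (-0.66 ± 0.16) and Creb3l3 (-1.67 ± 0.43) fell, with a median of -1.04. Of 8 markers of Paneth cells, antimicrobial cells at the crypt base, Defa30 (0.73 ± 0.20), Ang4 (0.69 ± 0.20) and Mmp7 (0.63 ± 0.19) rose, with a median of 0.68. Of 8 enteroendocrine markers Tac1 (1.42 ± 0.25), Gcg (0.93 ± 0.22) and Cck (0.95 ± 0.23) rose, and of 8 goblet cell markers Fcgbp (-0.71 ± 0.17) and Zg16 (-0.56 ± 0.17) fell. Of 9 crypt and stem cell markers tested Sox9 (0.73 ± 0.22) rose, and of 8 myeloid markers Cd14 (0.93 ± 0.26) rose. None of the tested markers of fibroblasts, smooth muscle, endothelium, tuft cells, T and NK cells, B and plasma cells or enteric neurons and glia was called by edgeR. The part of these shifts in the pump differences was not tested.

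Set against the summed enterocyte markers of the same library, the pumps had higher means with tCDCA than with DMSO. Because that sum itself fell with tCDCA, a gene that fell less than the markers, or did not change, is higher on this scale. Abcc2 was at 11.5 ± 3.74 CPM per 1000 CPM of enterocyte markers with DMSO (SD, n = 3) and at 16.7 ± 4.63 with tCDCA (n = 3, second run), and the ranges of 8.93 to 15.8 and 11.6 to 20.6 overlapped. Abcg2 was at 18.6 ± 4.28 and 35.7 ± 10.4 on this scale, and every tCDCA library (24.6 to 45.1) was above every DMSO library (14.1 to 22.6). Abcb1a was at 30.5 ± 10.6 and 68.9 ± 20.7, again without overlap, at 19.3 to 40.6 and 51.5 to 91.8. Set against the epithelial markers instead, Abcg2 was at 29.9 ± 3.65 with DMSO and 20.8 ± 3.77 with tCDCA, with no overlap, while Abcc2 (18.5 ± 5.05 and 11.2 ± 7.56) and Abcb1a (48.2 ± 11.5 and 40.8 ± 11.4) overlapped. The direction of the difference in means thus depended on which cells' RNA was the reference. These ratios carry no test and were computed after the levels had been seen.

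**Figure D4:**
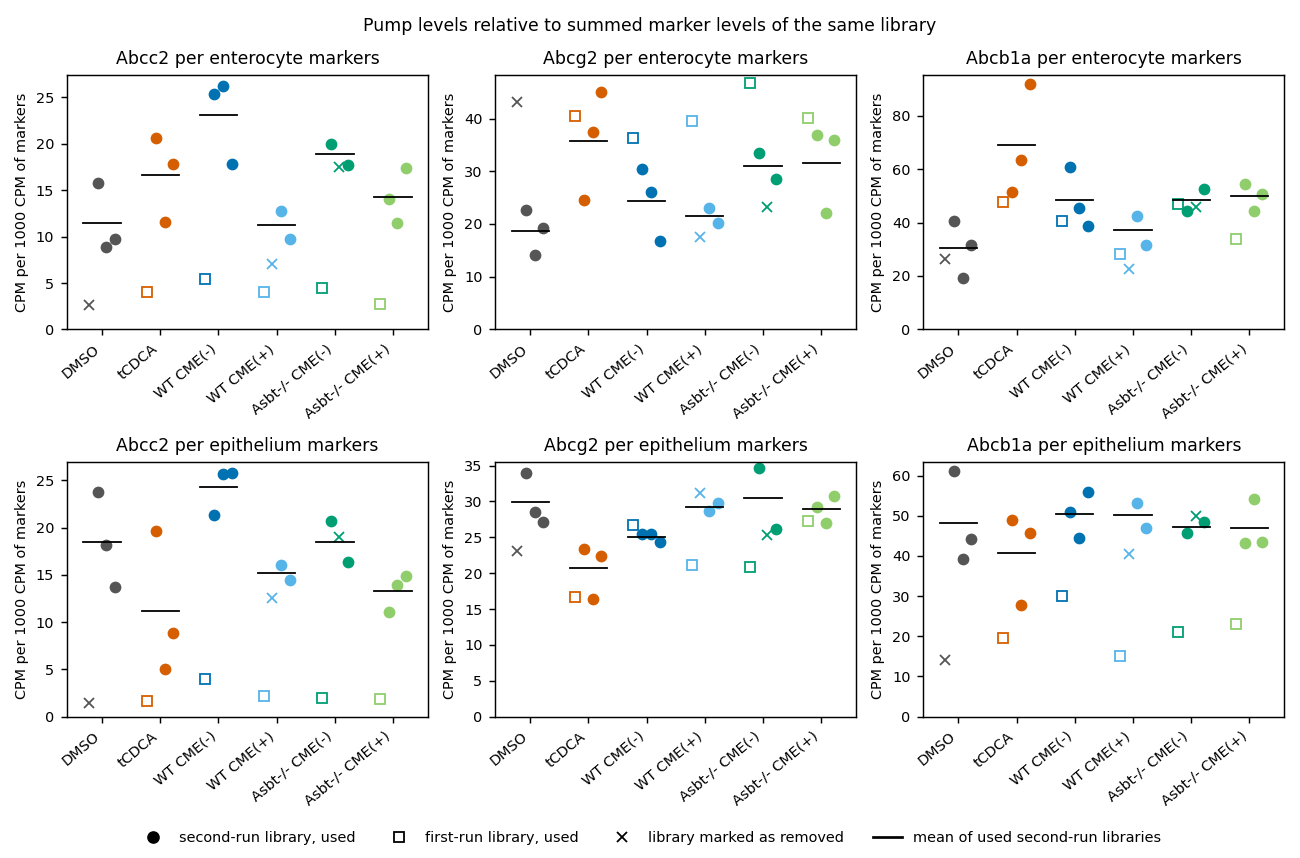
Levels of Abcc2, Abcg2 and Abcb1a per 1000 CPM of summed enterocyte markers (top) or epithelial markers (bottom) of the same library, by treatment group. Symbols are filled circles for used second-run libraries, open squares for first-run libraries, crosses for libraries marked as removed, and lines for second-run means. With tCDCA, Abcg2 is above DMSO on the enterocyte scale (35.7 against 18.6) and below it on the epithelial scale (20.8 against 29.9).

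Other pumps of drugs and conjugates were scarcer than the brush border members or not detected well enough to test. Of 8 genes in this list 4 were tested, and none was called with tCDCA against DMSO. Abcc1, a basolateral exporter of glutathione conjugates, had 20.5, 13.3 and 13.3 CPM with DMSO and 30.5, 21.7 and 29.5 CPM in the second-run tCDCA libraries. These did not overlap, and the difference was 0.69 ± 0.27 with an edgeR adjusted p of 0.133. Abcc5, an exporter of cyclic nucleotides, was at -0.94 ± 0.38 (adjusted p = 0.16), Abcb1b at 0.58 ± 0.67 (0.739) and Abcc10 at -0.02 ± 0.69 (0.996). Abcb11, the bile salt export pump of hepatocytes, had at most 9 counts in a library, and Abcb4 and Abcc6 at most 8.

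Of 14 other ABC transporters tested 2 fell with tCDCA and none rose, 5 had a difference above 0, and the median was -0.28. Abcd3, which carries fatty acids into peroxisomes, was among those that fell (-0.52 ± 0.15, edgeR adjusted p = 0.0362). Of 5 tested sterol and lipid pumps Abcg5, 1 subunit of the apical sterol exporter, fell (-0.88 ± 0.23, edgeR adjusted p = 0.0141). It had 24.5, 38.5 and 39.6 CPM with DMSO and 15.6, 18.0 and 17.0 CPM with tCDCA in the second run, with no overlap.

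Among carriers that bring pump substrates into the cell or move them out, the uptake carriers named here fell and an exporter subunit rose. Of the 12 carriers in this list 4 fell and 1 rose with tCDCA, with a median of -0.43. Slc10a2, the bile acid uptake carrier, was at -1.77 ± 0.22, the peptide carrier Slc15a1 at -1.86 ± 0.27 and the prostaglandin carrier Slco2a1 at -0.97 ± 0.22. Slc51b, a subunit of the basolateral bile acid exporter, rose by 0.91 ± 0.20. Of 21 tested conjugating enzymes, which make substrates of Abcc2 and Abcg2, 5 fell and none rose, with a median of -0.18. The sulfotransferase genes Sult1b1 (-1.04 ± 0.18), Sult1d1 (-0.95 ± 0.18) and Sult2b1 (-1.27 ± 0.30) and the glucuronosyltransferase gene Ugt2b34 (-0.85 ± 0.17) were among them.

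Among 13 transcription factors known to act on pump genes, Cdx2, a factor of intestinal identity, fell with tCDCA (-1.20 ± 0.27, edgeR adjusted p = 0.00395), and the median was -0.46. In second-run libraries Cdx2 was at 41.9, 37.4 and 90.6 CPM with DMSO and at 19.3, 33.2 and 20.7 CPM with tCDCA, with no overlap. Of 7 tested genes that report receptor activity, the FXR target Fgf15 rose (4.98 ± 0.38) and Cyp3a13, a drug-metabolizing enzyme, fell (-1.28 ± 0.25). Of 7 genes of the apical scaffold that anchors brush border transporters 3 fell, with a median of -0.38. These were the PDZ scaffold genes Slc9a3r1 (-1.33 ± 0.20, adjusted p = 2.02e-05) and Pdzk1 (-1.60 ± 0.32, 0.00299) and the actin bundling gene Vil1 (-0.92 ± 0.17, 0.000516).

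The extracts were compared with the same DMSO libraries that served for tCDCA. No member passed the edgeR test with any of them, where 0.297% of genes were called with WT CME(-), 0.175% with WT CME(+), 0.952% with Asbt-/- CME(-) and 2.31% with Asbt-/- CME(+). Under the alternative settings no member was called in these 4 comparisons either.

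The order of Abcc2 over the treatments in second-run libraries put WT CME(-) first, at 152 ± 7.73 CPM (SD, n = 3; 143, 153 and 159 CPM), all but the lowest above every DMSO library. DMSO followed at 124 ± 23.3 (n = 3), Asbt-/- CME(-) at 113 ± 20.9 (n = 2; 128 and 98.0 CPM) and WT CME(+) at 102 ± 10.3 (n = 2; 109.8 and 95.2 CPM). Asbt-/- CME(+) was at 82.2 ± 16.5 (n = 3; 65.7, 82.2 and 98.7 CPM) and tCDCA lowest at 64.3 ± 37.4 (n = 3). Neighbours in this order differed by less than the sum of their SDs. Against DMSO, WT CME(-) was at 0.32 ± 0.24 log2 units (interval -0.17 to 0.82), WT CME(+) at -0.29 ± 0.26 (-0.82 to 0.24) and Asbt-/- CME(-) at -0.23 ± 0.26 (-0.76 to 0.30). Asbt-/- CME(+) was at -0.59 ± 0.24 (-1.08 to -0.10), with an edgeR adjusted p of 0.217.

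Abcg2 spanned a narrower range, with DMSO at the top at 201 ± 6.19 CPM (SD, n = 3) in the second run. WT CME(+) was at 197 ± 0.74 (n = 2), Asbt-/- CME(-) at 186 ± 39.7 (n = 2) and Asbt-/- CME(+) at 179 ± 23.4 (n = 3). WT CME(-) was at 157 ± 12.0 (n = 3; 171, 151 and 149.7 CPM), with no overlap with DMSO, and tCDCA at 123 ± 11.3 (n = 3). The last pair, WT CME(-) and tCDCA, differed by more than the sum of their SDs, and the neighbours above them by less. The 4 extract groups had log2 differences from DMSO of -0.29 to -0.12, of which WT CME(-) had the lowest at -0.29 ± 0.16 (interval -0.60 to 0.03). In the first run WT CME(-) was not low, at 211 CPM, against 177 to 224 CPM for the other extracts and 145 CPM for tCDCA.

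Abcb1a was at 337 ± 40.3 CPM with WT CME(+) (SD, n = 2), 323 ± 49.9 with DMSO (n = 3) and 317 ± 45.3 with WT CME(-) (n = 3) in the second run. Asbt-/- CME(+) was at 288 ± 32.2 (n = 3), Asbt-/- CME(-) at 287 ± 5.93 (n = 2) and tCDCA at 241 ± 46.4 (n = 3). Neighbours differed by less than the sum of their SDs, and differences of the extracts from DMSO ran from -0.17 to 0.05 log2 units.

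Abcc3 was highest with Asbt-/- CME(+), at 9.65, 8.84 and 8.52 CPM in the second run, above all other used second-run libraries. Those of the other groups ran from 3.67 to 7.96 CPM. The difference of Asbt-/- CME(+) from DMSO was 0.89 ± 0.42 log2 units (interval 0.04 to 1.74), with an edgeR adjusted p of 0.299. Against WT CME(+) it was 0.79 ± 0.41 (-0.03 to 1.61), with an adjusted p of 1. In the first run Abcc3 was at 12.0 CPM with Asbt-/- CME(+), 13.7 with Asbt-/- CME(-), 12.2 with tCDCA, 5.09 with WT CME(+) and 3.44 with WT CME(-). The removed WT CME(+) replicate 2 had 0.798 CPM, from 2 counts. Abcc4 had group means of 3.00 to 4.19 CPM in the second run, with SDs of 0.879 to 2.55, and no order of its groups stood out from that spread.

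CME(-) against CME(+) of the same donor genotype contrasts extracts with and, as taken here, without bile acids. Averaged over both genotypes, Abcc2 was 0.49 ± 0.17 log2 units higher with CME(-) (interval 0.14 to 0.84), 1.40-fold, and did not pass the test (edgeR adjusted p = 0.27). No member was called, and 0.434% of genes were. With the extract libraries fitted alone the Abcc2 difference was 0.50 (edgeR adjusted p = 0.00949). With a block of extract genotype and replicate number in those groups it was 0.52 (0.0465). That block stands for the extract donor, which the labels give for second-run libraries alone. First-run pairs were taken to share a donor as well. With no count filter in the fit of all 21 libraries it was 0.48 with an adjusted p of 0.05, just under the threshold, so the call depended on the fit. The other 4 members were at -0.17 to 0.08.

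By genotype the Abcc2 difference was 0.61 ± 0.24 (interval 0.11 to 1.11) for WT extracts and 0.36 ± 0.24 (-0.14 to 0.85) for Asbt-/- extracts. All second-run WT CME(-) libraries, at 143 to 159 CPM, were above both used WT CME(+) libraries, and in the first run it was 31.6 against 18.7 CPM. For Asbt-/- donors the second-run libraries overlapped only at 98.0 and 98.7 CPM, and the first-run values were 16.8 and 15.5 CPM. The genotypes' differences were not told apart by the interaction term (-0.26 ± 0.34, interval -0.96 to 0.45, edgeR adjusted p = 1). No gene was called in the WT comparison (831 at an unadjusted p under 0.05), 0.0229% in the Asbt-/- comparison and none by the interaction (491). Beside Abcc2, Fgf15 rose by 1.76 ± 0.21 with CME(-) averaged over genotypes, Cdx2 fell by 0.82 on the log2 scale (SE 0.19) and Myo1a was the single called enterocyte marker of 19 (-0.60 ± 0.13). The smooth muscle markers Myl9 (0.65 ± 0.13) and Acta2 (0.54 ± 0.13) rose, 2 of 8 with a median of 0.60, and their part in the pump values was not tested.

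Between donor genotypes no member was called in either form, and neither was any other gene by edgeR (531 genes at an unadjusted p under 0.05 for CME(-) and 556 for CME(+)). Abcc2 was at -0.55 ± 0.24 (interval -1.05 to -0.06) in Asbt-/- against WT CME(-). For CME(+) it was at -0.30 ± 0.24 (-0.79 to 0.20). The remaining members lay between -0.35 and 0.79 over both forms, with Abcc3 at the upper end.

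tCDCA and WT CME(-), both labelled with 200 µM in the second run, differed in Abcc2. It was called lower with tCDCA, by 1.21 on the log2 scale (SE 0.23, interval -1.68 to -0.75), 2.32-fold, with an edgeR adjusted p of 0.00834. That is 1 of 5 members, where 0.541% of genes were called in either direction and 0.274% lower, and Abcc2 was 18th of all genes by p. The tCDCA libraries at 106, 34.2 and 52.5 CPM did not reach the 143 to 159 CPM of WT CME(-) in the second run, and the first-run libraries had 14.6 and 31.6 CPM. The call held in each fit that left out a single library, with differences of -1.57 to -0.98. It was lost in the second run alone (-1.25, adjusted p = 0.0686), with no run term (-1.24, 0.958) and with both groups fitted alone (-1.22, 0.112).

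The other brush border pumps did not pass that test. Abcg2 was at -0.40 ± 0.14 (interval -0.69 to -0.12, edgeR adjusted p = 0.237), and its 111 to 133 CPM with tCDCA lay below the 149.7 to 171 CPM of WT CME(-) in the second run. Abcb1a was at -0.42 ± 0.16 (-0.74 to -0.10, adjusted p = 0.289), with overlapping libraries. Of the enterocyte markers Anpep (-1.24 ± 0.20), Dpp4 (-0.79 ± 0.16) and Mgam (-0.70 ± 0.17) fell in the same comparison, 3 of 19 with a median of -0.70. Per 1000 CPM of enterocyte markers Abcc2 was at 16.7 ± 4.63 with tCDCA and 23.2 ± 4.67 with WT CME(-), with overlapping ranges. Per 1000 CPM of epithelial markers it was at 11.2 ± 7.56 and 24.2 ± 2.54 (SD, n = 3 each), with no overlap. Sult1d1 (-0.91 ± 0.17), Sult1b1 (-0.66 ± 0.17) and the organic cation exporter Slc47a1 (-1.26 ± 0.31) were the called genes of the enzyme and carrier lists.

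Against Asbt-/- CME(-) no member was called, with 0.114% of genes called. Abcc2 was at -0.66 ± 0.24 (interval -1.16 to -0.16, edgeR adjusted p = 0.394) and Abcg2 at -0.50 ± 0.15 (-0.80 to -0.19, 0.256). The remaining 3 were at -0.24 to 0.22.

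Abcc2 also differed between the runs. In the first run it was at 14.6 to 31.6 CPM in the used libraries, and in the second at 34.2 to 159 CPM, so no first-run library reached the second. The run term, read after these levels had been seen, was 2.38 ± 0.19 log2 units (second minus first), 5.22-fold, with an edgeR adjusted p of 9.53e-11. Of all genes tested 126 had a run term at least as large in this direction, Abcc2 included, where 37.3% of genes were called for the run term and 18.9% higher in the second run. Abcb1a was higher in the second run by 0.69 ± 0.12 (adjusted p = 2.13e-05). Abcg2 (-0.18 ± 0.10), Abcc3 (-0.49 ± 0.27) and Abcc4 (-0.54 ± 0.36) did not pass. Enterocyte markers had 11 higher and 3 lower of 19 in the second run, with a median of 0.69, and epithelial markers 3 higher and 7 lower of 10, with a median of -0.59. The part of cell makeup in the run difference was not tested.

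The genes most like each member were taken as those with the smallest root mean square difference of run-centred log2 CPM over the 21 libraries, among 7624 candidates. For Abcc2 they were the RNA-editing cofactor A1cf (0.29), Sult1d1 (0.29) and Sh3bgrl (0.31), where the median of all candidates was 0.63. For Abcg2 they were the G protein subunit gene Gng12 (0.13), Myo15b (0.15) and Nucb1 (0.15), against 0.42 for all. For Abcb1a they were Pcyt1a (0.16), a gene of phosphatidylcholine synthesis, Tmem30a (0.17), a subunit of lipid flippases, and Sbno1 (0.18), against 0.41. Abcc3 had Med27 (0.32), Tlr3 (0.33) and Atic (0.34) against 0.59, and Abcc4 had Sesn2 (0.32), Plrg1 (0.36) and Bcas1 (0.38) against 0.62. A gene that did not vary at all would stand at 0.54 from Abcc2, 0.26 from Abcg2, 0.24 from Abcb1a, 0.50 from Abcc3 and 0.52 from Abcc4. Among the members Abcg2 and Abcb1a had the smallest distance, 0.24, which is about what such a flat gene gives. Abcc2 stood at 0.42 from Abcb1a and 0.45 from Abcg2.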

How the data were processed

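Raw counts, whole numbers per gene and library, were deposited by the authors as a single table for 24 libraries of ileal fragments. The submitters' processing notes name HISAT2, Picard, cutadapt and FastQC and the build GRCm39. Not given in the sources used here are tool versions, the program that counted reads, whether it used strand, and its annotation. Reads shared by paralogs or by genes that overlap could thus have been divided in an unknown way. Per the labels' protocols 100 ng of total RNA went into each library.

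Symbols came from GENCODE M21 (GRCm38) and named 51884 of 57126 identifiers, and no gene coordinates of that build were used for the counts. Promoter windows came from RefSeq (GRCm38.p6). The labels mark 3 libraries as removed, and these were left out: WT CME(+) replicate 2 and Asbt-/- CME(-) replicate 3, whose reads mapped poorly, and DMSO replicate 1, which had another DMSO concentration. Both poorly mapped libraries and Asbt-/- CME(-) replicate 2 are labelled CAM, not CME, in 1 field, and were grouped by title.

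Counts of the 21 other libraries were tested with edgeR 4.0.16 in R 4.3.3: filterByExpr by group (13125 genes left), TMM scaling, and a robust quasi-likelihood model with terms for group and run. The 13 comparisons were contrasts of it, two-sided, with Benjamini-Hochberg adjustment within each and calls at an adjusted p under 0.05. Levels are CPM after TMM scaling. The common biological coefficient of variation was 0.266. On simulated counts of 12092 genes for tCDCA against DMSO, 24 of 100 genes changed by 1 log2 unit were recovered. Of those changed by 2 log2 units 88 of 100 were recovered, and there were 6 false calls in all. The simulation gave every gene the same coefficient of variation and no run difference, so these rates need not hold for the data. No pair of used libraries within a group agreed within sampling noise, and other pairs were not compared in this way.

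The members and gene lists were chosen with earlier results of these data known. Named genes were the members, tested genes of the other pump list, up to 4 called genes with the smallest p of each other list, the 3 genes most like each member, Fgf15 and Slc10a2. Some results that this rule names are not reported here. Replicate numbers pair the second-run CME(-) and CME(+) libraries of 1 genotype, which share an extract donor per the labels. Elsewhere the labels do not say whether a shared number means anything shared, such as the tissue. Deviations of same-numbered libraries correlated at -0.29 to 0.15 (median -0.07, 45 pairs), and those of same-donor pairs at -0.07 to 0.06 (4 pairs). A group has at most 1 used first-run library, and the first-run pairs ran from -0.29 to -0.07. With so few libraries per group and run, these correlations cannot decide whether same-numbered libraries share tissue. Alternatives were DESeq2 1.42.0, no scaling factors, no count filter, no run term, the removed libraries added, the second run alone, a replicate block, no mitochondrial rRNA, the compared groups alone, and single libraries left out.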

Additional observations from a re-analysis of the deposited data

Results flagged for a closer look

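Abcc2 in WT CME(-) replicate 1, the first-run library of that group, was at 31.6 CPM, while the other libraries of the group were at 143 to 159 CPM, so that this library lay far from the rest. It was the single such case among 15 sets of 4 libraries of 1 gene and group. The rate of about 1 in 20 by chance holds only for libraries of 1 kind. Each set held 1 first-run and 3 second-run libraries, and Abcc2 differed 5.22-fold between the runs, so that rate does not apply to it. In the first-run libraries of the other groups Abcc2 was lower still, at 12.1 to 18.7 CPM.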

How the results depend on the processing

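With tCDCA against DMSO 2 members were called. The count was 1 with no scaling factors (Abcg2 lost), and 1 with DMSO replicate 1 added (Abcc2 -0.70, edgeR adjusted p = 0.145), with all 24 libraries (-0.70, 0.117), in the second run alone and without tCDCA replicate 3 and DMSO replicate 3 (-0.62, 0.143), where Abcc2 was lost. It was 0 with no run term and with the compared groups alone, and 1 to 2 over fits that left out a single library. With the replicate number as a block both calls held (Abcc2 -0.92, 0.0172, and Abcg2 -0.69, 0.00522). The 1 call with tCDCA against WT CME(-) became 0 with no run term, in the second run alone and with the compared groups alone, and stayed 1 over single libraries left out. With CME(-) against CME(+) averaged over genotypes, 0 calls became 1 (Abcc2) with no count filter (0.48, edgeR adjusted p = 0.05) and with the compared groups alone. The same call came with a block of extract genotype and replicate number in those groups. The cause of these changes was not tested. In the other comparisons no alternative called a member. Over all alternatives the 3 called values kept their direction in 54 fits and passed in 38, while the 62 uncalled values changed sign in 107 of 1131 fits. Over all genes the count for tCDCA against DMSO was 176 with no run term, 298 with the compared groups alone, 324 without tCDCA replicate 3 and DMSO replicate 3, 327 without DMSO replicate 3, 427 with no scaling factors (229 higher, 198 lower, against 331 and 415), and 746 as reported. Depth limits Abcc3 and Abcc4, which had as few as 11 and 4 counts in a used library.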
